A study of Mus musculus with 4 samples.

Results

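The bacteria in the stool of control mice were followed from day 0 to day 4 of a dosing schedule that delivered phosphate-buffered saline (PBS) and no antibiotic. The animals were wild-type C57BL/6J mice of 8 to 12 weeks, kept on standard chow. PBS in a volume of 100 µl was given 2 times a day on 3 days and a last time on day 4, by oral gavage, into the peritoneum or into a vein. All fecal libraries whose sample sheet entry names PBS were taken, 34 of 198 in the series, and the days of a mouse were matched by the mouse name that begins the sample name. This gave 16 mice with both days, 5 dosed by mouth (C2 to C6), 5 in the peritoneum (C7 to C11) and 6 by vein (C13 to C18), and 2 mice with day 0 alone, which were left out. The day 0 library is the only control: no mouse that was left unhandled was analysed here, so time, handling, PBS and the route cannot be told apart. The labels and sample sheets read here name neither cage nor sex.

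Stool of laboratory mice is dominated by anaerobes of the Bacteroidota, chiefly the Muribaculaceae, a family that breaks down plant and host glycans, and in some colonies Prevotella, a genus that ferments plant polysaccharides. The Firmicutes, here mainly Lachnospiraceae and Oscillospiraceae, ferment fibre and include the main butyrate producers. Many genera of the mouse gut have no cultured member and carry placeholder names such as CAG-485 or UBA7173. The 16S rRNA gene, present in all bacteria, was amplified over its V4 region and sequenced, so that each value is a share of the reads of a library and a rise of a genus can mirror a fall of another. The number of bacteria in the stool was not measured.

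Day 0 libraries were shallower than day 4 libraries. They held 318 to 38648 reads (median 10434) against 8556 to 64482 (median 37115) at day 4, and the day 4 library was the deeper in 15 of 16 mice. At day 0 the libraries of C2 (457 reads), C5 (318) and C14 (529) held fewer than 1000 reads, and a genus at 0 there can hold up to 0.657%, 0.943% and 0.567% of reads, the share of 3 reads. The smallest value above 0 was 2 reads in all 32 libraries, so a 0 may hide a single read and these limits may be too low. Because of the difference in depth, most comparisons are also given with every library thinned at random to 1000 reads, which leaves 13 mice. Thinning cannot restore single reads missing from a shallow library, so it may not make the days fully equal. Distances to own and other mice, the test of the Shannon change by route, and the run and antibiotic comparisons were not repeated in thinned libraries. All day 0 libraries and 13 of the day 4 libraries came from the sequencing run named ok122, and the day 4 libraries of C14, C17 and C18, all dosed by vein, came from the run SB1. Each of 70 pairs of libraries of the same route and day differed by more than sampling noise (chi-square of at least 3.09 per degree of freedom). Intervals and limits on reads account for counting error alone, because several PCR reads can stem from 1 molecule.

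Prevotella was the most abundant genus at day 0 and fell by day 4. It held 28.1% ± 8.17 (SD, n = 16 mice) of reads at day 0 and 18.4% ± 13.2 at day 4, and was lower at day 4 in 13 of 16 mice. At day 0 its share lay between 13.1% (C17) and 43.0% (C4), with a median of 29.4%. At day 4 it lay between 2.43% (C18) and 40.8% (C14), with a median of 14.5%. The days overlapped widely, and the spread between mice was larger at day 4. In C7, C16 and C18 the share dropped from 25.9%, 28.2% and 32.4% to 2.63%, 2.69% and 2.43%. In C8 and C10 it moved little, from 36.5% to 37.1% and from 23.5% to 21.9%. It was higher at day 4 in C8, C13 (14.3% to 34.0%) and C14 (30.1% to 40.8%). The mean log2 change, computed on percent of reads plus 0.01 in a fit over all genera with the mouse as a block, was -1.06 (SE 0.26, 95% interval -1.58 to -0.53, limma adjusted p = 0.0101). It was -1.18 (adjusted p = 0.00715) in thinned libraries, -0.96 (adjusted p = 0.018) within run ok122, and kept an adjusted p of at most 0.0241 with any 1 mouse left out. In the 3 shallow day 0 libraries the 95% Wilson interval of the Prevotella share was 28.4% to 38.7% in C5 (9.54% at day 4), 27.4% to 35.9% in C2, which holds its day 4 share of 28.2%, and 26.3% to 34.1% in C14, below its day 4 share.

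Nearly all of these reads were assigned to Prevotella sp902776665, which held 28.1% at day 0 and 18.4% at day 4. The other 5 Prevotella taxa seen in these mice were at 0 in all 16 day 0 libraries and each held at most 0.0203% on average at day 4. Prevotella histicola, a species known from the human mouth, was the most abundant of them, with reads in 4 mice. Prevotella was the leading genus of 15 mice at day 0 (CAG-485 led in the other) and of 7 at day 4, when CAG-485 led in 4, Duncaniella in 4 and Paramuribaculum in 1. The same genus led on both days in 7 of 16 mice.

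**Figure D1:**
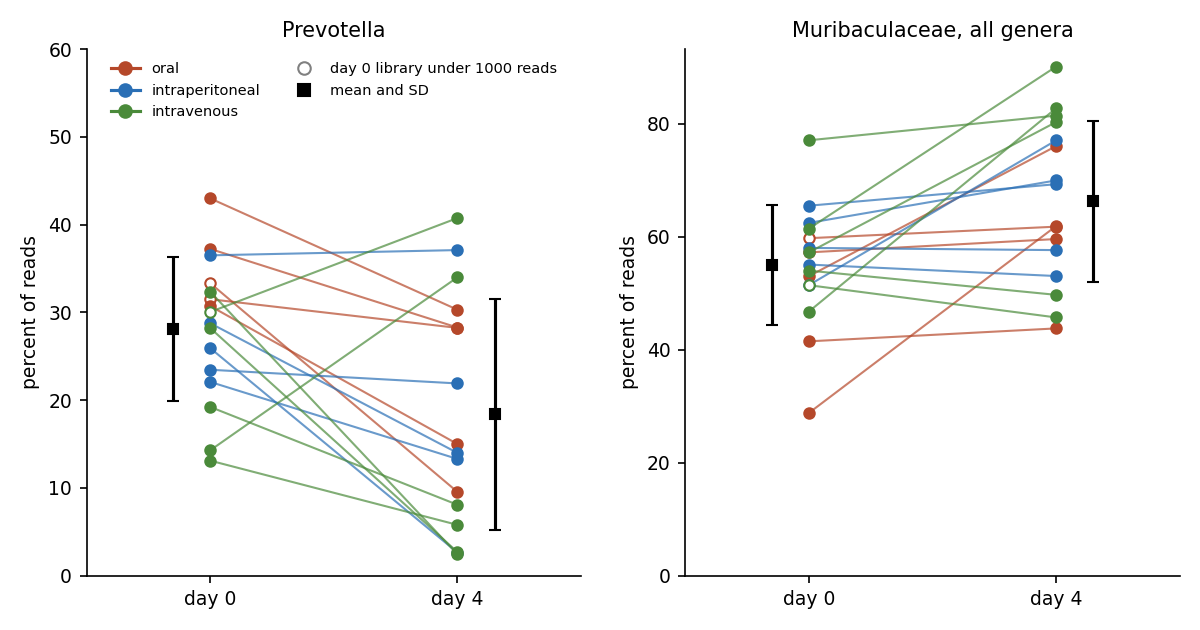
Percent of reads (y axis) of Prevotella (left) and of all Muribaculaceae (right) at day 0 and day 4, a line per PBS mouse coloured by route; open circles are day 0 libraries under 1000 reads, and black squares with bars are mean and SD over 16 mice. Prevotella lines fall in 13 of 16 mice and Muribaculaceae lines rise in 12 of 16.

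The Muribaculaceae together held 55.0% ± 10.7 of reads at day 0 and 66.3% ± 14.2 at day 4, and were higher in 12 of 16 mice. But the family did not pass the test (log2 0.26, SE 0.12, limma adjusted p = 0.117). It lay below 0 on the centred log ratio (log2 -0.20, limma adjusted p = 0.635). That ratio sets a family against the average tested family of its library, and a genus against the average tested genus. Of its 8 genera, all tested, 1 rose and none fell (over all 99 genera tested 16.2% rose and 4.04% fell), with a median log2 change of 0.33 against 0.58 over all genera. The genus that rose was UBA7173, an uncultured member of the family. Its share at day 0 lay between 2.04% (C3) and 10.4% (C17), with a median of 4.19%, and at day 4 between 3.30% (C14) and 10.9% (C16), with a median of 6.68%. The means were 4.47% ± 1.89 and 6.88% ± 2.35 and 12 of 16 mice were higher at day 4 (log2 0.64, SE 0.22, adjusted p = 0.0399; thinned 0.79, adjusted p = 0.0445). The call was lost in pairs of at least 2000 reads (adjusted p = 0.0577), without any of C2, C3, C4, C6, C8, C9, C10, C15, C16 and C18 (adjusted p of up to 0.0813), and on the centred log ratio (log2 0.12, adjusted p = 0.884). The call was also lost with no filter on rare genera (adjusted p = 0.0662). The centred log ratio lowers the change of all 99 genera alike, by 0.52 on the log2 scale, so that their median moves from 0.58 to 0.06. With it the mean changes of CAG-485, Duncaniella, unclassified Muribaculaceae, Muribaculum and UBA3263, above 0 on percent of reads, lie below 0, none past the test on either scale.

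The Prevotella share can also be set against the Muribaculaceae share of the same library, a ratio that other bacteria do not enter and that was chosen after the values were seen. The log2 ratio was -1.01 ± 0.71 (SD, n = 16) at day 0 and -2.33 ± 1.67 at day 4 and was lower at day 4 in 13 of 16 mice. The mean change of -1.32 passed a two-sided exact test that swaps the days within mice (65536 swaps, p = 0.00385; thinned -1.51, p = 0.00732, 13 mice). Leaving out any 1 mouse gave changes between -1.50 and -1.12.

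For the other leading Muribaculaceae the data set a narrow range on the mean change over mice. The change of a single mouse could be larger, as for Duncaniella in C4 (2.36% to 12.7%) and Paramuribaculum in C13 (6.7% to 2.27%). For 17 of the 99 genera tested the 95% interval of the mean change lay within 2-fold in either direction. Of these, 6 had a mean share of at least 1%: CAG-485, Duncaniella, unclassified Muribaculaceae, Paramuribaculum, Muribaculum and UBA3263. CAG-485 held 13.8% ± 4.77 at day 0 and 14.6% ± 4.85 at day 4 (log2 0.10, interval -0.21 to 0.41). Paramuribaculum held 8.10% ± 2.69 and 8.13% ± 4.06 (interval -0.48 to 0.29), and Muribaculum 5.20% ± 1.99 and 6.27% ± 2.27 (interval -0.14 to 0.70). Duncaniella, with 10.9% ± 2.94 and 13.9% ± 4.95, and unclassified Muribaculaceae, with 9.32% ± 2.59 and 12.1% ± 3.22, had intervals just above 0 (0.0023 to 0.73 and 0.05 to 0.71) and missed the threshold after adjustment over all genera (limma adjusted p = 0.148 and 0.0941). The other 11 genera of the 17 were rare, with mean shares of at most 0.119%, and for them the added 0.01% narrows the interval. With 0.1% added, 73 genera lay within these bounds, and in thinned libraries 6 did.

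Among the Firmicutes, the summed share of the Lachnospiraceae fell, while of its 29 genera tested 2 fell (TWA4 and COE1), 2 rose and 22 had a mean change above 0. The family held 10.4% ± 5.26 at day 0 and 6.75% ± 5.43 at day 4 (log2 -0.84, SE 0.32, limma adjusted p = 0.0487; thinned -0.99, adjusted p = 0.033), with 10 of 16 mice lower. The call was lost without any of C2, C3, C4, C8, C9, C10, C13, C14, C15 and C16 (adjusted p of up to 0.0996). TWA4 fell from 0.436% ± 0.582 to 0.0723% ± 0.106. It was lower in 11 mice and higher in 3, with day 0 shares up to 1.89% (C5) and day 4 shares of at most 0.383% (log2 -1.76, SE 0.57, adjusted p = 0.029; thinned -2.62, adjusted p = 0.0327). Its call was lost without C3, C4, C8, C9, C10 or C15 (adjusted p of up to 0.0603) and when the days were not paired by mouse (adjusted p = 0.0971). COE1 fell from 1.76% ± 2.27 to 0.646% ± 0.494, lower in 11 of 16 mice (log2 -1.14, SE 0.41, adjusted p = 0.0471). Its mean at day 0 rested in part on the shallow library of C14, at 9.83%, and the median went from 1.10% to 0.560%. The call of COE1 was lost in thinned libraries (-1.05, adjusted p = 0.175), within run ok122 (adjusted p = 0.121), without pairing (adjusted p = 0.0652), with no filter (adjusted p = 0.0706), in pairs of at least 2000 reads (adjusted p = 0.236) and without any of 11 mice (adjusted p of up to 0.0883, without C14).

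Coprocola, of the Anaerotignaceae, a neighbouring family, fell from 0.115% ± 0.137 to 0.0153% ± 0.0212 and was lower in 10 mice and higher in 3 (log2 -1.61, SE 0.57, adjusted p = 0.0399; thinned -2.71, adjusted p = 0.0125). The call was lost within run ok122 (adjusted p = 0.0558), by the exact swap test (adjusted p = 0.0573), without pairing (adjusted p = 0.0541), with no filter (adjusted p = 0.0817) and without any of C3, C4, C7, C8, C9, C10, C13, C15 and C16 (adjusted p of up to 0.0901). Of the Lachnospiraceae among the 15 most abundant genera, unclassified Lachnospiraceae held 4.58% ± 3.95 and 3.15% ± 4.04 (log2 -0.90, adjusted p = 0.0777), CAG-510 held 0.769% ± 1.35 and 0.101% ± 0.154 (log2 -1.02, adjusted p = 0.174) and UBA3282 held 0.580% ± 0.665 and 0.215% ± 0.176 (log2 -0.65, adjusted p = 0.449). On the centred log ratio the first and the second passed (-1.42, adjusted p = 0.00715, and -1.54, adjusted p = 0.02). In pairs of at least 2000 reads UBA3282 passed (-1.79, adjusted p = 0.0218). C-53, of the same family, did not pass in 16 mice (0.278% to 0.0660%, log2 -1.56, adjusted p = 0.113) and passed in thinned libraries (-2.66, adjusted p = 0.0216).

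Of the 99 genera tested, those present in at least 20% of the 32 libraries, 20 (20.2%) passed an adjusted p of 0.05, 16 higher at day 4 (16.2%) and 4 lower (4.04%), and 32 had an unadjusted p under 0.05. The count was lower in thinned libraries, which also leave fewer mice and fewer genera to test. There 5 of 60 genera passed (8.33%), 1 higher and 4 lower: UBA7173 rose, and Prevotella, TWA4, Coprocola and C-53 fell. In the same 13 mice without thinning 12 of 97 passed, 6 higher and 6 lower, a setting added after seeing the data. On the centred log ratio 13 passed, 4 higher and 9 lower. Leaving out C2 gave 11, C3 13, C8 10 and C16 12, and the other 12 mice between 14 and 19. Of the 16 genera that were higher, 6 had reads in fewer than 20% of the day 0 libraries and entered the test only through day 4: Streptococcus, Avispirillum, Adlercreutzia_404257, Evtepia, Ruminococcus_C_58660 and Phocaeicola_A_858004. A genus admitted in this way had to be higher at day 4, so its call is a description. Of the other 10, Porcincola, Cryptobacteroides, unclassified CAG-508 and Parabacteroides_B_862066 kept their call with any 1 mouse left out, as did Prevotella among those that fell. Within run ok122 6 of the 16 passed, UBA7173 and 5 of those admitted through day 4. In the 12 pairs of at least 2000 reads 3 passed (Streptococcus, Avispirillum and Evtepia), all admitted through day 4.

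**Figure D2:**
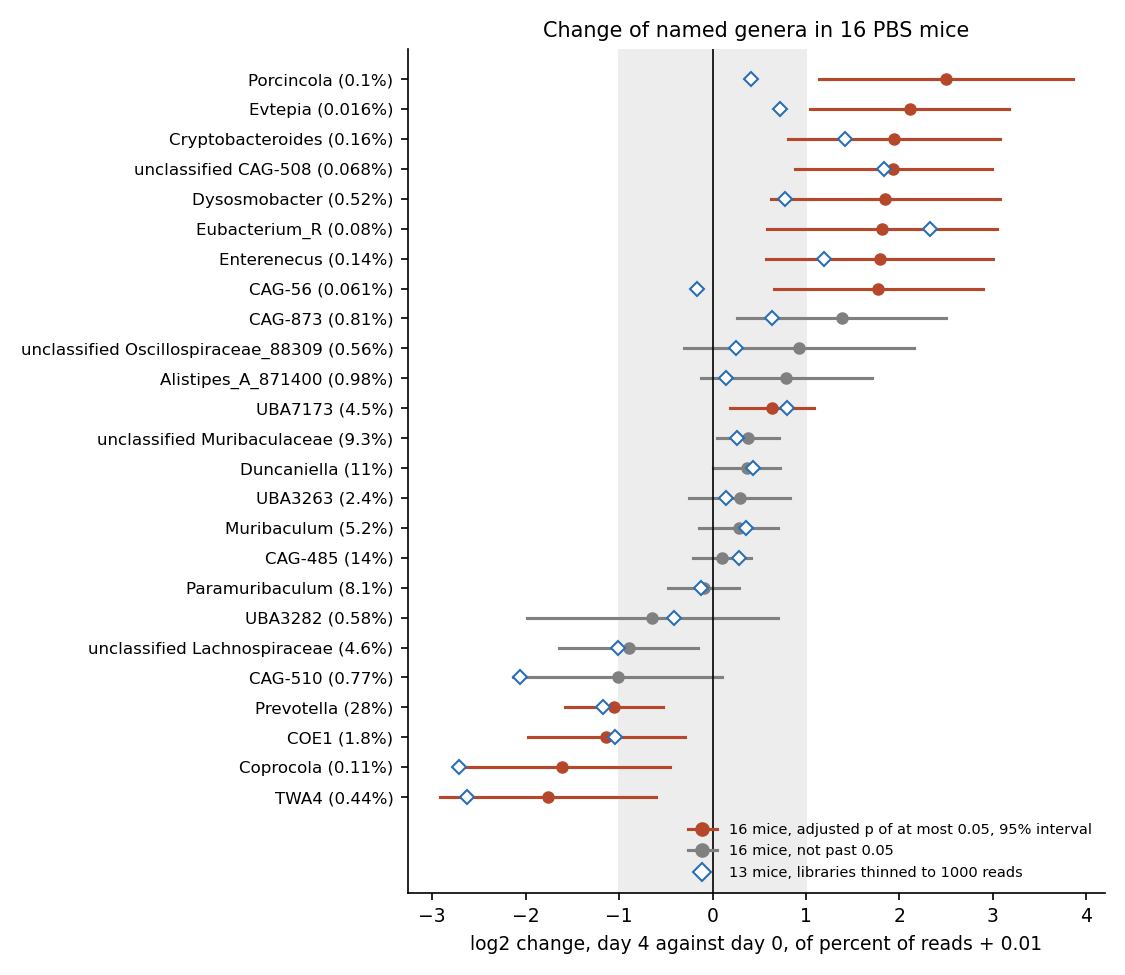
Mean log2 change of percent of reads plus 0.01 (x axis) for the named genera (y axis, with mean day 0 percent); circles and bars are the fit of 16 mice with its 95% interval, red where the adjusted p was at most 0.05, and diamonds are 13 mice with libraries thinned to 1000 reads. The grey band spans a 2-fold change. The falls of Prevotella, TWA4 and Coprocola are as large or larger when thinned, whereas Porcincola moves from 2.50 to 0.42.

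Rises were counted by the mean share of a genus. Under a mean share of 0.1% 9 of 56 genera rose (16.1%), between 0.1% and 1% 6 of 31 (19.4%), and above 1% 1 of 12, UBA7173. All 6 genera admitted through day 4 had a mean share under 0.1%, so the rate of rises in that range is a description. Genera of the Oscillospirales, anaerobic fermenters that grow slowly and are hard to culture, made up 7 of the 16, among them Evtepia, Ruminococcus_C_58660 and Avispirillum, admitted through day 4. Dysosmobacter, whose cultured members make butyrate, rose from 0.524% ± 0.579 to 1.03% ± 0.676, higher in 13 of 16 mice (log2 1.85, SE 0.60, adjusted p = 0.029). It was at 0 at day 0 in C2, C5 and C14, the 3 shallow libraries, and the thinned change was 0.77 (adjusted p = 0.375). Leaving out C14 raised its adjusted p to 0.0618, and the call was also lost without C2, C5 or C8. Evtepia, admitted through day 4, went from 0.0157% ± 0.0342 to 0.0933% ± 0.0760. It had reads in 3 mice at day 0 and in 12 at day 4 (log2 2.11, SE 0.52, adjusted p = 0.0101). The change was 1.84 (adjusted p = 0.0468) in the 12 pairs of at least 2000 reads and 0.72 (adjusted p = 0.483) thinned. Because of the admission these values of Evtepia are descriptions. Enterenecus (0.140% to 0.207%), Limivicinus (0.0136% to 0.0422%) and Eubacterium_R (0.0798% to 0.181%) rose by 1.24 to 1.81 on the log2 scale. Their thinned changes were 1.19, 1.14 and 2.32, none past the test, and each lost its call with 8 or more of the 16 mice left out in turn. Ruminococcus_C_58660, likewise admitted through day 4 and so a description, went from 0.00994% to 0.0431%. It had reads in 2 mice at day 0 and in 11 at day 4 (log2 1.49, adjusted p = 0.0103, and 1.32, adjusted p = 0.0577, in pairs of at least 2000 reads).

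Other rises came from several families. Porcincola, of the Lachnospiraceae, rose from 0.103% ± 0.253 to 0.295% ± 0.375 and was higher in 14 of 16 mice (log2 2.50, SE 0.67, adjusted p = 0.0103). Its highest shares were 1.01% in C4 at day 0 and 1.48% in C7 at day 4. The call of Porcincola was lost in thinned libraries (0.42, adjusted p = 0.782), within run ok122 (adjusted p = 0.0679), in pairs of at least 2000 reads (1.79, adjusted p = 0.0861) and with 0.1% added (0.99, adjusted p = 0.0507). CAG-56, of the same family, rose from 0.0614% to 0.0864% (log2 1.77, adjusted p = 0.0273), lost its call without C2, C8 or C16, and came out at -0.17 in thinned libraries. Unclassified CAG-508 was higher in 15 of 16 mice (0.0675% ± 0.0721 to 0.196% ± 0.119, log2 1.94, SE 0.52, adjusted p = 0.0103; thinned 1.83, adjusted p = 0.102; pairs of at least 2000 reads 1.29, adjusted p = 0.0577). Among minor Bacteroidota, Cryptobacteroides rose from 0.160% ± 0.220 to 0.359% ± 0.291, higher in 14 of 16 mice (log2 1.94, SE 0.56, adjusted p = 0.0153; thinned 1.42, adjusted p = 0.271; pairs of at least 2000 reads 1.01, adjusted p = 0.122). Parabacteroides_B_862066, a genus of glycan degraders, rose from 0.0106% to 0.0394% (log2 1.41, adjusted p = 0.0147) and lost its call within run ok122 (adjusted p = 0.0558), in pairs of at least 2000 reads (adjusted p = 0.11) and on the centred log ratio (adjusted p = 0.0973). Phocaeicola_A_858004, admitted through day 4 and so a description, went from 0.00735% to 0.0254% (log2 1.13, adjusted p = 0.029). Its call was lost under the same 3 settings (adjusted p = 0.0726, 0.122 and 0.308) and without C2, C8, C13 or C16.

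**Figure D3:**
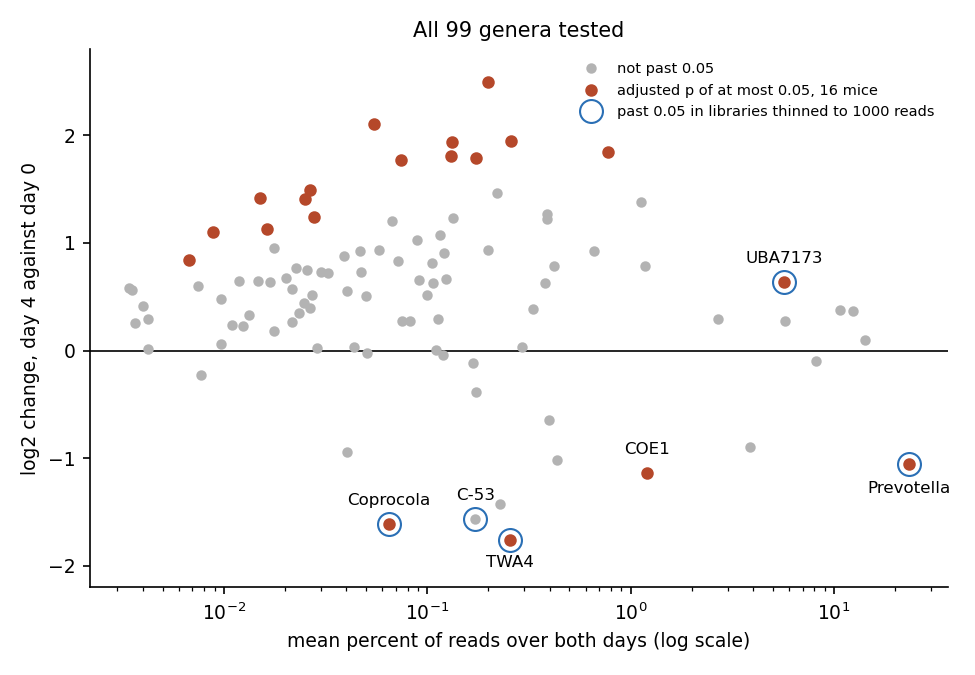
Mean percent of reads over both days (x axis, log scale) and mean log2 change (y axis) of the 99 genera tested in 16 mice; red points had an adjusted p of at most 0.05, and blue rings mark the 5 genera past 0.05 in libraries thinned to 1000 reads. Of the red points above 0 only UBA7173 is ringed.

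Of the genera admitted through day 4, 3 were at 0 in all 16 day 0 libraries: Streptococcus, a lactic acid bacterium common in the mouth, Adlercreutzia_404257, whose cultured members convert plant isoflavones, and Avispirillum, of the Oscillospirales. The day 0 libraries hold 174649 reads together, so that 0 reads allow a pooled share of up to 0.00172%, if each 0 stands for no read. The smallest value above 0 was 2 reads in all 32 libraries, so a 0 may hide a single read and the true limits may be higher. Streptococcus had 150 reads at day 4, a pooled share of 0.0283%, in 10 of 16 mice (4 oral, 4 intraperitoneal, 2 intravenous). Its day 4 share was above the limit of the mouse's own day 0 library in 5. The pooled share is 16.5 times the pooled day 0 limit, a description because the genus was admitted through day 4. The limit pools reads over mice, and 38648 of them came from C4. Adlercreutzia_404257 had 76 reads in 7 mice (0.0143%, 8.35 times the pooled limit), and 4 mice lay above their own day 0 limit. Avispirillum had 99 reads in 10 mice (0.0187%, 10.9 times the pooled limit), and 5 mice lay above their own. All 3 were too rare to be tested in thinned libraries. Over the whole series, antibiotic mice included, Streptococcus and Adlercreutzia_404257 had reads in 0 of 107 day 0 libraries. At day 4 they had reads in 29 and 18 of 91. Avispirillum had reads in 4 of 107 and 26 of 91. The absence at day 0 was thus not particular to PBS mice. Streptococcus and Adlercreutzia_404257 were kept because their day 0 cells were not all empty and held 0.

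Groups of related genera were followed as lists. Over all genera tested 16.2% were higher past the threshold and 4.04% lower. Of 16 genera tested of the Oscillospirales 7 were higher past it, 3 of these admitted through day 4, and 0 lower, with a median log2 change of 1.01 against 0.58 over all genera. Of this group 0 of 10 passed in thinned libraries, with a median of 0.75 against 0.22. Of 29 tested genera of the Lachnospiraceae 2 rose and 2 fell, with a median of 0.56, and in thinned libraries 0 of 20 rose and 2 fell, with a median of -0.27. Of 6 genera of the minor Bacteroidales families 2 rose, with a median of 0.85, and in thinned libraries 0 of 4 passed, with a median of 0.22. No genus passed among the 3 tested Desulfovibrionaceae, which reduce sulfate, the 3 of small Bacilli that include wall-less forms, or Akkermansia, a mucin degrader. Akkermansiaceae held 0.0543% ± 0.137 at day 0 and 0.342% ± 1.02 at day 4, with up to 4.06% in 1 library. Enterobacteriaceae, facultative anaerobes that often bloom when the gut flora is disturbed, had reads in 1 mouse at day 0 and in 5 at day 4, at most 0.345%, and none of their 3 genera was common enough to be tested. Of the Erysipelotrichales 0 of 12 genera were, and Helicobacteraceae and Campylobacteraceae were at 0 in all 32 libraries. Genera often found in reagents, on skin or in food held 0.0042% of reads at day 0 and 0.00429% at day 4, with at most 0.0465% in any library.

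Of 38 families tested 10 passed (26.3%), 6 higher and 4 lower. Besides Lachnospiraceae, Bacteroidaceae (28.4% ± 8.16 to 18.9% ± 13.3, log2 -1.01, adjusted p = 0.00583), Anaerotignaceae and Erysipelotrichaceae (0.0272% to 0.00208%, log2 -0.89, adjusted p = 0.0451) fell. Those higher were the families of Adlercreutzia_404257, Streptococcus, Avispirillum, Parabacteroides_B_862066 and Cryptobacteroides, and UBA660, a family of the Bacilli (0.0415% to 0.138%, log2 1.58, adjusted p = 0.0226). The first 3 of these (Eggerthellaceae, Streptococcaceae and CAG-272) met the presence filter only through day 4, and Erysipelotrichaceae only through day 0, so that their calls are descriptions. Leaving out 1 mouse at a time, Tannerellaceae, UBA932, UBA660 and Bacteroidaceae kept their call throughout, Anaerotignaceae in 9 of 16 cases and Lachnospiraceae in 6. In thinned libraries 4 families passed, all lower: Bacteroidaceae, Anaerotignaceae, Lachnospiraceae and Dehalobacteriaceae (0.248% to 0.101%; -2.26 thinned, adjusted p = 0.0388, and -0.39 in 16 mice, adjusted p = 0.661). At the level of phyla Bacteroidota held 85.1% ± 7.54 at day 0 and 87.5% ± 7.47 at day 4, and Firmicutes_A 13.4% ± 7.04 and 10.98% ± 7.35. The sum of the Bacteroidota was higher in 9 mice and lower in 7.

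Below the genus, single taxa of the table were compared. These comparisons were added after the values were seen, and differences between taxa of a genus were not tested. Of 142 taxa of the table tested by the exact swap test, 23 passed after adjustment (16.2%), 21 higher and 2 lower; 46 had an unadjusted p under 0.05. CAG-485 sp900547755 was higher at day 4 in 16 of 16 mice, with 0.138% at day 0 and 0.380% at day 4 (log2 2.08, SE 0.48, exact adjusted p = 0.00433), while CAG-485 sp002493045, the bulk of the genus, held 11.8% and 11.7% and was higher in 8. UBA7173 sp002491305 was higher in 15 of 16 mice (3.03% to 5.44%, log2 0.85, SE 0.15, exact adjusted p = 0.013), and UBA7173 sp004102805 held 1.43% and 1.39%. Duncaniella sp001689575 was higher in 14 of 16 mice (1.64% to 3.87%, log2 1.41, SE 0.53, exact adjusted p = 0.0173), against 6.63% and 7.60% for Duncaniella dubosii and 2.55% and 2.29% for Duncaniella muris. In thinned libraries 0 of 86 taxa passed this test, and 14 had an unadjusted p under 0.05. There UBA7173 sp002491305 was higher in 11 of 13 mice (log2 0.94, unadjusted exact p = 0.00122, adjusted p = 0.105), Duncaniella sp001689575 in 11 of 13 (1.16, exact adjusted p = 0.112) and CAG-485 sp900547755 in 9 of 13 (0.97, exact adjusted p = 0.467).

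Genera seen on both days held nearly all reads in libraries thinned to 1000 reads. In the 13 mice with 1000 reads drawn per library, 41.5 ± 11.2 genera (SD) were seen at day 0, 44.3 ± 6.24 at day 4 and 28.6 ± 5.14 on both days. Genera seen on both days held 96.5% ± 2.65 of the day 0 reads (lowest 91.8%, highest 99.5%) and 97.1% ± 1.29 of the day 4 reads. In all 26 of these libraries 13 genera were present: Prevotella, the 8 genera of the Muribaculaceae, unclassified Lachnospiraceae, COE1, Alistipes_A_871400 and Dysosmobacter. Together they held 91.0% of all reads at day 0 and 90.8% at day 4.

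Whole communities were compared by the Bray-Curtis distance, which is 0 for equal shares and 1 for no taxon in common. Day accounted for a share of 0.123 of the variation among the 32 libraries (exact swaps within mice, 16 mice, p = 0.000397). It was 0.122 (exact p = 0.0022) in thinned libraries and between 0.107 and 0.147 with any 1 mouse left out. Mouse accounted for a share of 0.552 and route for 0.105, given as descriptions. These shares cannot be ranked against that of day, because mouse splits the 32 libraries into 16 groups and day into 2. Route is fixed within a mouse, so its share lies within that of mouse. A mouse's own 2 libraries were 0.296 ± 0.0951 apart (n = 16), from 0.108 in C8 to 0.436 in C5. The mean distance of a day 4 library from the other day 0 libraries of its route, averaged per mouse, was 0.337. Over all pairs of a route, which gives the larger intravenous group more weight, own libraries were 0.0434 closer than those of other mice (day 0 libraries permuted among mice of a route, 100000 resamples, one-sided permutation p = 0.00465). The own library was closer than the mean of the others in 11 of 16 mice. It was the closest of its route in 7: 3 of 5 oral, 3 of 5 intraperitoneal and 1 of 6 intravenous mice. Among all 16 day 0 libraries it was the closest in 4.

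**Figure D4:**
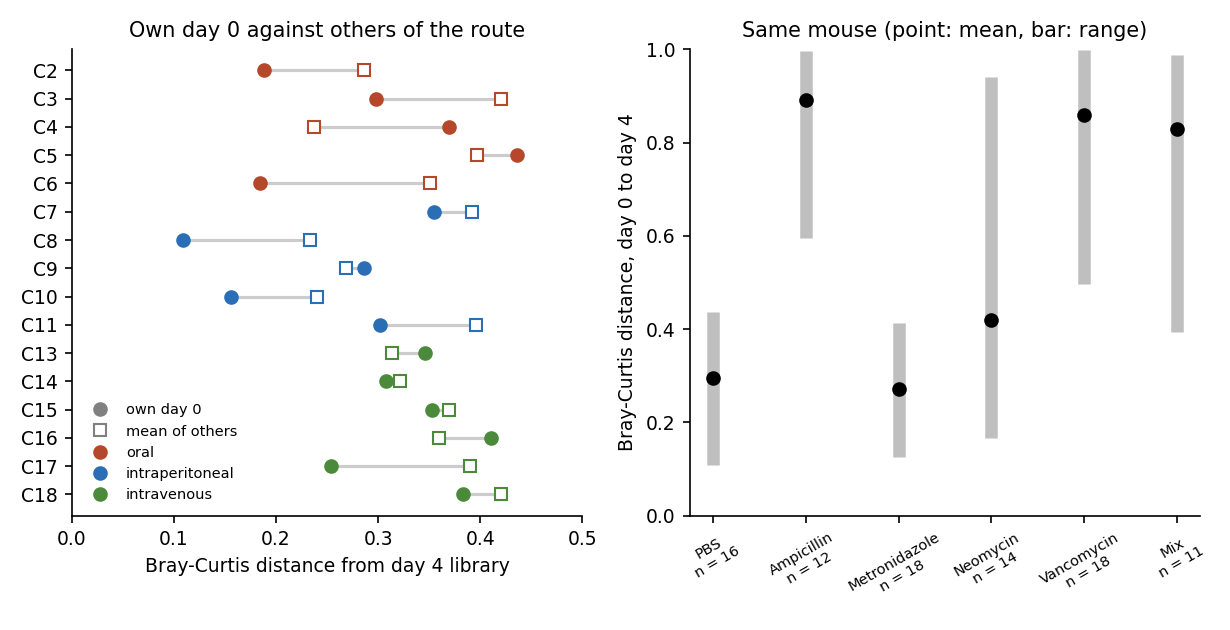
Left: for each PBS mouse (y axis), the Bray-Curtis distance (x axis) of its day 4 library from its own day 0 library (filled circle) and the mean distance from those of other mice of its route (open square), coloured by route. Right: the distance between day 0 and day 4 of the same mouse (y axis) by treatment (x axis), with points for means and bars for the range; PBS lies between 0.108 and 0.436, close to metronidazole and below all mice given ampicillin or vancomycin.

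Whether a mouse high in a genus at day 0 was still high at day 4 was asked for the 15 genera most abundant at day 0, by the correlation of log2 shares over 16 mice with permutation p-values adjusted over the 15. CAG-510 alone passed (Pearson r = 0.888, 100000 permutations, adjusted p = 0.0015; Spearman rho = 0.840, adjusted p = 0.00495). Without C4 and C16, the mice farthest from the median, r was 0.855. The points fall into mice with and without the genus: 7 had it on both days, 7 on neither, 1 (C7) at day 0 alone and 1 (C8) at day 4 alone (two-sided Fisher's exact p = 0.0101). Within the 7 mice that had it on both days r was 0.829 (exact permutation p of r = 0.0393), and rho, given without a p, was 0.643. The level of CAG-510 was lower at day 4 in 5 of these 7 mice. It went, for example, from 4.15% to 0.181% in C4 and from 2.94% to 0.429% in C16. Of the mice without it on either day C2, C5 and C14 had shallow day 0 libraries. For Prevotella r was 0.187 (permutation p = 0.491, adjusted p = 0.652) and for UBA7173 -0.09 (adjusted p = 0.797). CAG-485 (r = 0.515, permutation p = 0.0432, adjusted p = 0.202; 0.182 without C4 and C6) and Paramuribaculum (r = 0.488, permutation p = 0.0538, adjusted p = 0.202; 0.495 without C15 and C17) had the next highest r. CAG-873 had a negative r of -0.543 (permutation p = 0.0207, adjusted p = 0.156), which was -0.166 without the shallow C2 and C5. After the means of each route and day were taken out, r was 0.365 for CAG-485 and 0.858 for Paramuribaculum. Without C11, 2 genera passed.

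The SD of the within-mouse log2 change can be set beside the value that the spreads between mice on each day give if the days are unrelated. It was 0.54 for CAG-485 (0.77 if unrelated), 0.73 for Duncaniella (0.78), 0.78 for UBA7173 (0.75) and 1.40 for Prevotella (1.49). The SD between mice of Prevotella was 0.48 at day 0 and 1.41 at day 4, and this difference was not tested.

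No change in diversity passed its test in the full set of mice. The Shannon index, which rises with the number of taxa and their evenness, was 2.76 ± 0.293 at day 0 and 2.94 ± 0.249 at day 4 and was higher in 12 of 16 mice. The mean change of 0.187 ± 0.378 did not pass the exact swap test (16 mice, two-sided p = 0.0646), and was 0.0876 in thinned libraries (13 mice, exact p = 0.339). It ran from -0.68 in C13 to 1.04 in C5. Without C13 the change was 0.245 (exact p = 0.00427) and without C15 it was 0.213 (exact p = 0.043). The number of taxa in 1000 reads, the mean of 100 draws, was 56.6 ± 14.6 and 62.4 ± 10.2, higher in 9 of 13 mice (mean change 5.77, exact p = 0.202). Taxa with a single read may be missing from shallow day 0 libraries, which thinning does not undo. The effect on this count was not tested.

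**Figure D5:**
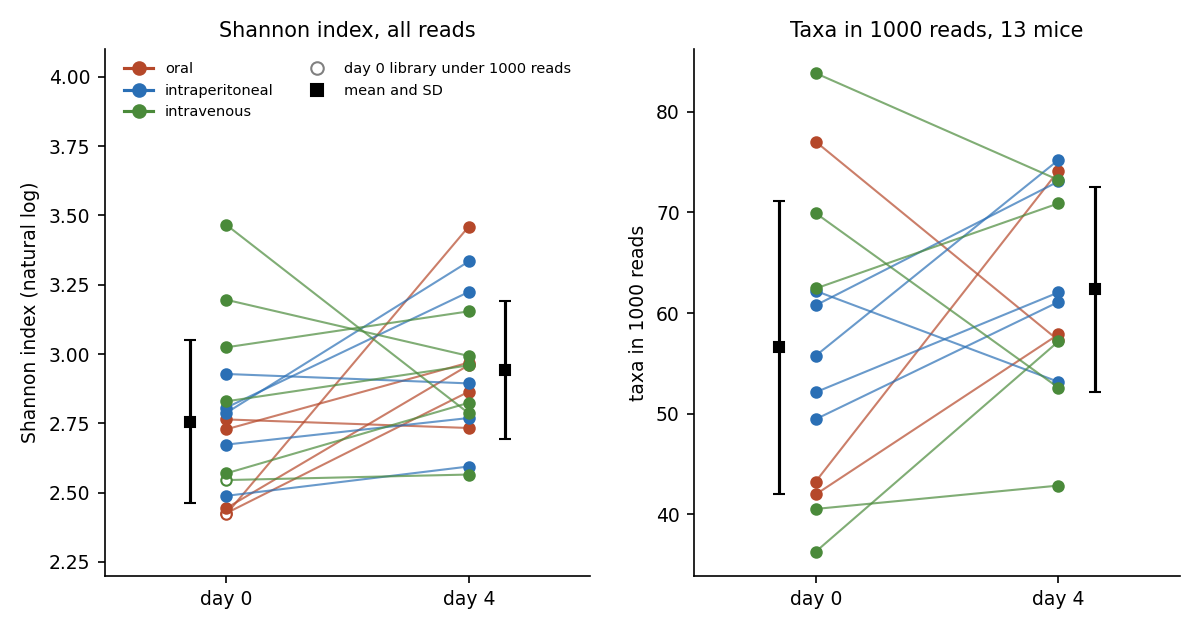
Shannon index (left y axis, natural log, 16 mice) and number of taxa in 1000 reads (right y axis, 13 mice) at day 0 and day 4, a line per PBS mouse coloured by route; open circles are day 0 libraries under 1000 reads and black squares with bars are mean and SD. Lines cross in both panels, and the largest fall of the Shannon index is that of C13, from 3.47 to 2.79.

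Routes were compared to ask whether gavage and injection differed in what they did. The change in Shannon index was 0.441 ± 0.396 in oral mice (n = 5), 0.227 ± 0.244 in intraperitoneal mice (n = 5) and -0.0579 ± 0.342 in intravenous mice (n = 6), and the routes did not differ by a permutation of route labels (F = 3.10, 100000 resamples, p = 0.0682; 0.0184 without C4 and 0.0496 without C18). In thinned libraries the changes were 0.220 (n = 3), 0.197 (n = 5) and -0.101 (n = 5), and their difference was not tested. Prevotella was lower at day 4 in 5 of 5 oral mice (35.2% ± 5.05 to 22.3% ± 9.37), 4 of 5 intraperitoneal mice (27.4% ± 5.72 to 17.8% ± 12.8) and 4 of 6 intravenous mice (22.9% ± 8.40 to 15.6% ± 17.1). By limma 0 of 99 genera (0%) differed in their change between routes after adjustment, and 8 had an unadjusted p under 0.05. Leaving out C4 gave 2 such genera and leaving out C17 gave 1.

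Within the oral mice 8 genera passed (8.08%), all higher, among them CAG-873, of the Muribaculaceae (0.405% ± 0.384 to 1.80% ± 0.613, higher in 5 of 5, limma adjusted p = 0.0145), and Odoribacter_865974, a butyrate producer (0.0943% ± 0.0965 to 0.450% ± 0.117, higher in 5 of 5, adjusted p = 0.0271). Odoribacter_865974 was lower at day 4 in 6 of 6 intravenous mice (0.522% ± 0.320 to 0.270% ± 0.142), and the test of the difference between routes did not pass (unadjusted p = 0.00359, limma adjusted p = 0.178). The oral count rested on the shallow libraries of C2 and C5: without either of them, and in thinned libraries, it was 0. It was 3 without C3, 21 without C4 and 4 without C6. In intraperitoneal mice 0 genera passed (0%, limma), with 8 at an unadjusted p under 0.05. In intravenous mice 1 did (1.01%): C-53, of the Lachnospiraceae, with 0.505% ± 0.496 at day 0 and 0.00884% ± 0.0217 at day 4, lower in 5 of 6 mice (adjusted p = 0.0155). The call was lost without C14, C15 or C18, and 2 genera passed without C13.

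The sequencing run could be set apart from the change only in intravenous mice, 3 of which had their day 4 library in each run. Of 99 genera 0 (0%) changed differently between the runs after adjustment by limma, and 10 had an unadjusted p under 0.05, led by Kineothrix (adjusted p = 0.0928). Prevotella went from 25.2% to 16.3% in the 3 mice of run SB1 and from 20.6% to 14.9% in the 3 of run ok122. The Shannon index changed by 0.135 ± 0.118 and -0.251 ± 0.408, and own distances were 0.315 ± 0.0648 and 0.370 ± 0.0357.

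The drift of PBS mice sets the scale for the antibiotic arms, compared here by the distance between a mouse's own day 0 and day 4 libraries with labels permuted within route and p adjusted over 5 antibiotics. Each arm pools its oral and injected mice. The antibiotic dose named for the series is 2.5 mg in 100 µl. Mice given ampicillin lay 0.890 ± 0.118 from their own start (n = 12), vancomycin 0.859 ± 0.183 (n = 18) and the mix of all 4 antibiotics 0.829 ± 0.202 (n = 11), against 0.296 in PBS (n = 16; permutation adjusted p = 1.67e-05 each, from a raw p of 1e-05, the smallest 100000 resamples can give). All mice given ampicillin or vancomycin and 10 of 11 given the mix lay above the highest PBS mouse. Neomycin did not pass (0.419 ± 0.233, n = 14, difference 0.123, permutation adjusted p = 0.0697), with 7 of 14 mice above the PBS range, and passed on the Jaccard distance (difference 0.154, permutation adjusted p = 0.0102). Metronidazole lay within the PBS range in 18 of 18 mice (0.271 ± 0.0865, difference -0.0249, permutation adjusted p = 0.369). The top of that range (0.436) is C5, whose day 0 library held 318 reads. The next PBS mouse, C16, lay at 0.411, below the highest metronidazole mouse at 0.414. These distances were not thinned. Prevotella went from 29.5% ± 6.16 to 23.9% ± 7.40 in the metronidazole mice and was lower in 12 of 18. Its mean log2 change was -0.36 ± 0.63, against -1.06 ± 1.40 in PBS mice, and the difference of 0.70 did not pass (permutation within route, p = 0.0668).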

How the data were processed

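Per the labels' protocols, V4 amplicons of 16S rRNA genes from mouse stool were read on an Illumina MiSeq. The software for filtering, denoising and taxonomy is not given in the sources used here. A single table was deposited by the authors, with 488 taxa whose signal is scaled to 100000 per library. All values of the PBS libraries were whole multiples of a step (tolerance 0.02 reads), and the largest such step was taken as 1 read. This put the smallest value at 2 reads in all 32 libraries. No count model was used. Samples were grouped by the deposited sample sheets, and days were paired by mouse name. Taxa empty in the whole day 0 block (49) were left out, and empty cells counted as 0. Genera and families present in at least 20% of libraries were tested with limma 3.58.1 (R 4.3.3; mouse as block, trended variance, Benjamini-Hochberg) on log2(percent + 0.01). For rare genera the added 0.01% sets the size of a change, which it can understate, or overstate where a shallow library is at 0. Other tests were exact day swaps within mice or permutations (Python 3.11.15, numpy 2.4.6, scipy 1.17.1, pandas 2.3.3). The limma tests were tested on simulated log2 levels drawn around the mean of each mouse. The simulation held no difference in depth between days, so it does not cover the one seen here. Genera named are the 15 most abundant at day 0, up to 8 with the largest rise and 8 with the largest fall past the threshold (mean of at least 0.05% on either day), and leading members of the lists; others were named after their values were seen. Members, lists and tests were chosen with earlier results of these data known. Each mouse gave 1 library a day, and whether mice shared a cage is not given. Alternatives were thinning, depth minimums, run, pseudocount, filter, pairing, the centred log ratio, other distances and leaving out each mouse.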

Additional observations from a re-analysis of the deposited data

Results flagged for a closer look

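Of 39 groups of 5 to 6 mice of one route examined for a sample far from the rest, 1 held such a sample, and chance gives about 1 in 20. In the oral mouse C4 Duncaniella went from 2.36% to 12.7% of reads, a log2 change of 2.42, while the nearest of the other 4 oral mice changed by 0.28.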

How the results depend on the processing

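Of the values for single genera and the ratio, 543 kept direction and side of the threshold under an alternative, 112 lost their call, 5 gained one and 8 changed sign, 7 of them not called on either side. These were CAG-485 (-0.42), Duncaniella (-0.16), unclassified Muribaculaceae (-0.14), Muribaculum (-0.24) and UBA3263 (-0.23) on the centred log ratio, which lowers all genera alike, Paramuribaculum within run ok122 (0.036) and without C13 (0.0032), and CAG-56 in thinned libraries (-0.17). The count of genera changed (20) was 13 with a pseudocount of 0.1%, 11 with no filter, 13 on the centred log ratio, 5 thinned, 8 within run ok122, 10 in pairs of at least 2000 reads, 12 in pairs of at least 1000 (added after seeing the data), and 10 to 19 with 1 mouse left out. Without the replicate block it was 18. Changed families (10) numbered 6 with presence in 50% of libraries, 6 without the replicate block, 4 thinned and 7 to 12 with 1 mouse left out. Genera bounded within 2-fold (17) numbered 73 with the larger pseudocount, 116 with no filter, 7 with presence in 50%, 6 thinned and 16 to 21 with 1 mouse left out. Oral calls (8) numbered 2, 5, 5 and 0 with the larger pseudocount, no filter, presence in 50% and thinning, and 0 to 21 with 1 mouse left out. Intraperitoneal calls (0) numbered 1 with no filter. Intravenous calls (1) numbered 0 with presence in 50%, 2 thinned and 0 to 2 with 1 mouse left out. With 1 mouse left out, differences between routes numbered 0 to 2, genera with kept levels 1 to 2, the Shannon change was 0.130 to 0.245 and its F by route 2.16 to 4.71. For neomycin the Jaccard distance gave a difference of 0.154. The cause of these shifts was not tested. Shares of reads cannot show absolute numbers, and genera under a library's 3-read limit could not be compared.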
